A study of Mus musculus with 1536 samples.

Results

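The genes described here are 9 ion channels, channel subunits and membrane sensors of lymphatic endothelial cells (LECs): *Piezo1*, *Piezo2*, *Trpv4*, *Aqp1*, *Kcnj8*, *Abcc9*, *Scn3a*, *Clca3a1* and *Pkhd1l1*. They were chosen by symbol, as 9 of the 23168 genes in the matrix, with earlier results of these cells known, and all 9 had a row. LECs of the nasopharyngeal mucosa of C57BL/6 mice of both sexes, aged 10 to 12 weeks, were sorted as CD31+ PDPN+ cells and sequenced one by one with Smart-seq3, a plate method that reads the full length of each transcript. The mice carried no treatment, and tissue of 30 animals was pooled. All cells are therefore 1 sample: no test was made, SDs describe the spread over these cells, and intervals of shares are exact (Clopper–Pearson) 95% intervals that cover counting error only. Cells were also split by a natural log value of *Stab2* above 1 (31.2% of the cells), of *Lyve1* above 1 (48.3%) and of *Igfbp5* above 2 (26.8%). *Stab2* and *Lyve1* encode hyaluronan receptors, and *Igfbp5* encodes a secreted binding protein of insulin-like growth factors. The study uses *Stab2*, with *Ptx3*, for capillary LECs and *Lyve1*, with *Foxp2*, for precollecting LECs. The *Lyve1* class is therefore not a class of capillary cells alone. These classes rest on measured values of the same cells, so everything said about them is a description.

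Lymphatic endothelium takes up interstitial fluid and is exposed to flow and stretch. PIEZO1 and PIEZO2 are large cation channels opened by membrane tension, and PIEZO1 takes part in the formation of lymphatic valves. TRPV4 is a calcium-permeable channel opened by heat, cell swelling and lipid mediators. AQP1 is a water channel. *Kcnj8* encodes Kir6.1, the pore of a potassium channel closed by ATP, and *Abcc9* encodes SUR2, its regulatory subunit. *Scn3a* encodes the pore of a voltage-gated sodium channel. CLCA proteins such as CLCA3A1 are secreted or membrane-bound regulators of chloride channels, and *Clca3a1* is a marker of lymphatic endothelium in several organs. *Pkhd1l1* encodes fibrocystin-L, a large membrane protein related to the polycystic kidney disease protein fibrocystin.

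The cells carried the markers of their label. *Prox1* was found (at least 1 read) in 97.7% of them, *Flt4* in 99.8% and *Mmrn1* in 100%, and all 10 lymphatic markers checked were found in more cells than not. Reads per cell lay between 7433 and 3524358 (median 350746), so a low gene can be missed in a shallow cell. Shares of members over all cells are given beside those after thinning each cell to 20000 reads, without the 51 shallower cells. Shares by class or group are at the cells' own depth unless stated. None of the mural, epithelial, Schwann and neural or red blood cell markers listed reached 5% of the cells. Of the immune list, *Lyz2* and *Cd68* were, and *Ptprc* and *Cd3e* had no read. Of 10 fibroblast markers 3 were, led by *Postn* with 37.9%. Of 10 blood endothelial markers 6 were, led by *Emcn* with 94.2%. Most cells had at least 2 markers of this list above 1, and 12 cells had as many of any of the other 5 lists used for this.

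Promoter sequences show where these genes start and what stands before them. A RefSeq table on GRCm38.p6 held 6 of the 9 genes, without *Piezo2*, *Pkhd1l1* and *Scn3a*. Starts here are those of RefSeq, and for *Aqp1* the GENCODE annotation used further below has a start further downstream, at 55336432. Printed are the bases before the start of *Aqp1* (chr6:55336049-55336298, plus strand), *Kcnj8* (chr6:142571615-142571864, minus), *Abcc9* (chr6:142702316-142702524, minus) and *Clca3a1* (chr3:144760978-144761227, minus), because the means of the first 3 were higher and that of *Clca3a1* lower in *Stab2* > 1 cells. Each runs 5′ to 3′ on the gene's strand, over 250 bases, except that 41 bases annotated as exon were left out for *Abcc9*. Capitals mark CACCC (bound by Krüppel-like factors), GATAA (GATA factors), CCAAT (NF-Y) and GGAATG (TEAD factors) on either strand.
Aqp1: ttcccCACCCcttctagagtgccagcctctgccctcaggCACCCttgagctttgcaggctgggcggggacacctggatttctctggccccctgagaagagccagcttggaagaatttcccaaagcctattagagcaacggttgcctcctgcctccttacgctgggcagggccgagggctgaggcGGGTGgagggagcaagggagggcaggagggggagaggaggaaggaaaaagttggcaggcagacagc
Kcnj8: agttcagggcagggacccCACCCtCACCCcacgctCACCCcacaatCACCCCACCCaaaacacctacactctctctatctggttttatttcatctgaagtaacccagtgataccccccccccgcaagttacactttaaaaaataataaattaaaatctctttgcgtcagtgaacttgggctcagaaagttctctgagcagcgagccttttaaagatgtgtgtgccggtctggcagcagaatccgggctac
Abcc9: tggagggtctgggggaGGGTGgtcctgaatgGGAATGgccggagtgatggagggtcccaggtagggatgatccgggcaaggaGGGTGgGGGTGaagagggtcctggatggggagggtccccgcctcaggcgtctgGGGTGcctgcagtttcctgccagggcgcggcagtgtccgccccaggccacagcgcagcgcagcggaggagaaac
Clca3a1: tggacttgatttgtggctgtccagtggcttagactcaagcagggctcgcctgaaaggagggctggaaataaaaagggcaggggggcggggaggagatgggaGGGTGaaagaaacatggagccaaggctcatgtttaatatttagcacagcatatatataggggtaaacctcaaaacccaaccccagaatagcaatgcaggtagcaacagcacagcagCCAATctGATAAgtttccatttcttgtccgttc
The 250 bases before the start held 5 CACCC matches in *Kcnj8*, 5 in *Abcc9* (4 of them in the printed part), 5 in *Trpv4*, 3 in *Aqp1* and 1 each in *Clca3a1* and *Piezo1*. Among 27025 promoters of this length, 51.3% held CACCC at least once, 6.73% at least 3 times and 0.625% at least 5 times. In *Kcnj8* all 5 lie in 1 stretch on the gene's strand, while in *Abcc9* 4 of 5 lie on the other strand. GATAA (23% of all promoters) and CCAAT (34.5%) were present only in *Clca3a1* among the 6, and GGAATG (12.6%) only in *Abcc9*. Of 3 further motifs searched, GGGCGG (32.9% of all promoters) was present in 5 of the 6, without *Kcnj8*, TATAAA (13%) only in *Piezo1*, and TGACTCA (4.43%) in none. In the printed sequences no marked match overlaps another, and in *Trpv4* CACCC matches overlap each other and GGGCGG by 1 base. A match is a string of letters and was not tested as a binding site.

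*Kcnj8* (chromosome 6 of GRCm38, 142564837 to 142571614) and *Abcc9* (142587862 to 142702315) are neighbours on the same strand, 16247 bases apart with 0 annotated genes between them. *Aqp1* lies on the same chromosome (55336432 to 55348555). *Piezo1* lies on chromosome 8 (122481698 to 122551329), *Piezo2* on 18 (63010213 to 63387183), *Trpv4* on 5 (114622152 to 114658421), *Scn3a* on 2 (65457118 to 65567627), *Clca3a1* on 3 (144729677 to 144760977) and *Pkhd1l1* on 15 (44457494 to 44601369). Exons of *Piezo1* share 2441 bases (24.6% of its exon bases) with *Ctu2* on the opposite strand, *Abcc9* 1.89% with *5330439B14Rik* and *Clca3a1* 4.36% with *Gm34866*. Whether counting used strand is not given in the sources, so reads in these overlaps cannot be assigned. *Clca3a1* also stands in a row of similar *Clca* genes, and its reads are uncertain to that extent.

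Over all cells, the water channel was the most abundant of the 9 and the regulatory SUR2 subunit the least. *Aqp1* had a mean of 29.8 ± 49.7 reads per 10000 (SD over cells), with a median of 1.51 and a highest cell of 395.9. Its cells fell into bands: 9.26% had no read, 41% had a natural log value above 0 and up to 1, 49.8% were above 1 and 37.2% above 3. *Clca3a1* followed with a mean of 6.71 ± 8.22 (median 3.69, highest 60.3), and *Pkhd1l1* with 2.55 ± 3.42 (median 1.45, highest 33.3). *Scn3a* (1.48 ± 2.60, median 0.109, highest 22.1), *Kcnj8* (1.33 ± 3.63, median 0, highest 42.3) and *Piezo1* (0.985 ± 1.46, median 0.385, highest 12.6) came next. The lowest means were those of *Trpv4* (0.595 ± 1.56, median 0, highest 22.5), *Piezo2* (0.432 ± 1.16, median 0, highest 9.84) and *Abcc9* (0.0545 ± 0.317, median 0, highest 4.20). The lowest cell was at 0 for each of them.

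Levels between genes were compared per length, taken as all annotated exon bases of a gene. Whether reads grow in proportion to this length was not tested. As mean reads per 10000 and per kilobase of exon, the order was *Aqp1* (11.3), *Clca3a1* (1.72), *Kcnj8* (0.522), *Trpv4* (0.146), *Pkhd1l1* (0.138), *Scn3a* (0.119), *Piezo1* (0.0991), *Piezo2* (0.0252) and *Abcc9* (0.00651). The SD over cells was larger than the mean for all 9, with a ratio of SD to mean from 1.23 (*Clca3a1*) to 5.81 (*Abcc9*), so no neighbours in this order were further apart than their spread over cells. Among all genes that reached 5% of the cells, *Aqp1* stood at percentile 99.6 of this measure, *Clca3a1* at 96.9, *Kcnj8* at 90.8, *Piezo1* at 63.7, *Piezo2* at 24.6 and *Abcc9* at 3.61.

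The share of cells with a read ranged widely among the members and depended on what counts as found. *Aqp1* was found in 90.7% of the cells (95% interval 88.6 to 92.6), *Clca3a1* in 88.1% (85.7 to 90.2), *Pkhd1l1* in 78.1% (75.2 to 80.9), *Piezo1* in 72.9% (69.8 to 75.9) and *Scn3a* in 59.9% (56.5 to 63.2). *Kcnj8* was found in 39.7% (36.3 to 43.1), *Trpv4* in 37.2% (33.9 to 40.5), *Piezo2* in 34.3% (31.1 to 37.6) and *Abcc9* in 7.01% (5.38 to 8.95). The intervals of *Kcnj8* and *Trpv4*, and of *Trpv4* and *Piezo2*, overlap. At 20000 reads the order of *Aqp1* (63.1%) and *Clca3a1* (72.9%) turned, and *Pkhd1l1* was found in 67.3%, *Piezo1* in 49.7%, *Scn3a* in 46.3%, *Kcnj8* in 28.6%, *Trpv4* in 25.2%, *Piezo2* in 22.5% and *Abcc9* in 3.67%. Counting only natural log values above 1, *Clca3a1* was found in 63.1% of the cells, *Aqp1* in 49.8%, *Pkhd1l1* in 45.6%, *Scn3a* in 28.5%, *Piezo1* in 20.4%, *Kcnj8* in 19.9%, *Trpv4* in 13.8%, *Piezo2* in 8.55% and *Abcc9* in 0.831%, so that *Piezo1* stood next to *Kcnj8*. Cells in which a member was found had more reads: a median of 475340 with *Piezo1* against 159140 without, and of 456170 with *Kcnj8* against 293500 without. A cell had a median of 5 of the 9 members (lowest 1, highest 9), and 5 cells had all 9.

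Expression was uneven, most of all for the rarer members. The 42 cells with the highest values held 97.5% of the summed level of *Abcc9*, 53.04% of *Piezo2*, 51.5% of *Kcnj8* and 46.4% of *Trpv4*. The same number of cells held 28.3% for *Piezo1*, 24.8% for *Pkhd1l1* and 23.1% for *Clca3a1*. All sorted cells were LECs, so no cell type that should lack these genes was at hand to measure a background of reads, and its part in low values was not tested.

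In the *Stab2* > 1 class, a marker of capillary LECs, the water channel, the Kir6.1 pore and the sodium channel pore were higher and the chloride channel regulator and fibrocystin-L lower. The measure is the log2 ratio of mean reads per 10000, each with 0.1 added, of the cells above the threshold over all others, and a member counts as higher or lower from a 2-fold difference. By this rule 3 of the 9 were higher (1.11% of the 11572 genes that reached 5% of the cells were) and 2 lower (1.43%), and the median log2 ratio was 0.12 for the members and 0.03 for all genes. The members were picked with such differences known, so nothing is read from these shares.

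*Aqp1* ran from 0 to 395.9 reads per 10000 in the *Stab2* > 1 cells, with a median of 59.97, and from 0 to 327.6 in the others, with a median of 0.209. The ranges overlap, but the middle 50% of the cells do not (22.8 to 102.1 against 0.0636 to 4.91). The means were 69.6 ± 61.4 and 11.7 ± 29.1 (log2 ratio 2.56, 2.60 at 20000 reads). *Kcnj8* had a median of 0.0504 in *Stab2* > 1 cells, up to 42.3, and a median of 0 in the others, up to 23.04. Its means were 2.74 ± 5.45 and 0.688 ± 2.11 (log2 ratio 1.85), and it was found in 55.1% (48.9 to 61.2) against 32.6% (28.8 to 36.6) of the cells. *Scn3a* had a median of 1.68 (highest 22.1) against 0.00785 (highest 15.4), with means of 2.73 ± 3.37 and 0.909 ± 1.92 (log2 ratio 1.49, and 0.97 with a pseudocount of 1). Its share was 80.6% (75.3 to 85.2) against 50.4% (46.3 to 54.6).

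*Clca3a1* was the mirror of *Aqp1*: its median was 0.192 (highest 36.6) in *Stab2* > 1 cells and 6.18 (highest 60.3) in the others, with means of 2.53 ± 4.89 and 8.60 ± 8.72 (log2 ratio -1.73). *Pkhd1l1* had a median of 0.0184 (highest 12.8) against 2.31 (highest 33.3), means of 0.881 ± 1.80 and 3.31 ± 3.70 (log2 ratio -1.80), and a share of 54.4% (48.1 to 60.5) against 88.9% (86.1 to 91.4). *Abcc9* had a log2 ratio of 0.68, within the 2-fold limit, though its share was 14.8% (10.8 to 19.7) against 3.45% (2.12 to 5.28). With a pseudocount of 0.01 in place of 0.1 its ratio was 1.57. The mechanosensors stood apart from these: *Piezo1* (log2 ratio 0.12), *Trpv4* (-0.05) and *Piezo2* (-0.39) had means within 2-fold of each other. Median reads per cell were 368560 in the class and 350281 outside it. Of the blood endothelial list, *Selp* (log2 ratio 2.11) and *Plvap* (1.32) were higher and *Cdh13* (-1.62) lower in this class. The immune marker *Lyz2* was lower (-1.78). Means of the summed immune list were 0.374 (0 to 9.65) in the class and 0.967 (0 to 296.2) outside it, with medians of 0. They depend on the highest cell. Without all cells that had at least 2 markers of any other cell type, blood endothelial included, 89 *Stab2* > 1 cells were left and the same 5 members were beyond 2-fold, with smaller log2 ratios of 1.06 for *Kcnj8* and 1.84 for *Aqp1*. Without only the 12 cells named above, the calls of the members were the same.

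**Figure D1:**
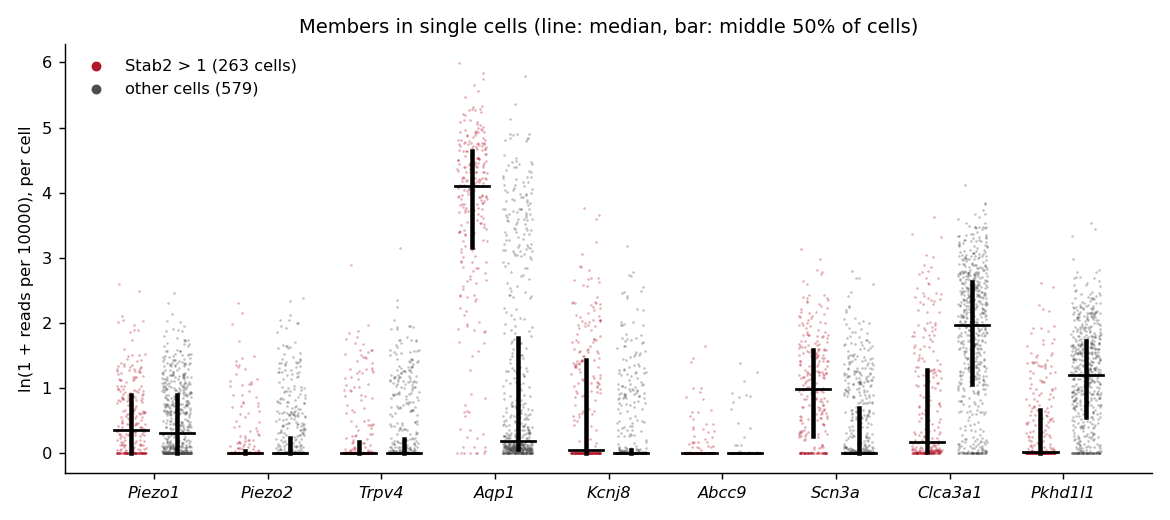
Each point is 1 cell, with the natural log of 1 plus reads per 10000 of each member on the vertical axis, in red for cells with *Stab2* above 1 and in grey for the others. Horizontal lines are medians and bars span the middle 50% of cells. *Aqp1* has a median of 59.97 reads per 10000 in the red cells and 0.209 in the grey ones, and *Clca3a1* and *Pkhd1l1* lie the other way.

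By *Lyve1* > 1, the tension-gated channel *Piezo2* had the largest log2 ratio of the members with the pseudocount of 0.1, but not with 1, where *Clca3a1* (-1.07) was further from 0. Here 2 members were higher (0.493% of all genes compared) and 1 lower (0.484%), with a median log2 ratio of 0.50 for the members and 0.01 for all genes. *Piezo2* ran from 0 to 9.84 reads per 10000 in the *Lyve1* > 1 cells, with a median of 0.0197, and from 0 to 3.45 in the others, with a median of 0. Its means were 0.809 ± 1.55 and 0.0795 ± 0.337 (log2 ratio 2.34), and the ranges overlap. It was found in 52.3% (47.4 to 57.3) of the *Lyve1* > 1 cells and 17.5% (14.02 to 21.4) of the others, and at 20000 reads in 38.7% and 7.93%. *Scn3a* had means of 2.12 ± 3.03 and 0.877 ± 1.95 (log2 ratio 1.19, and 0.73 with a pseudocount of 1), and *Clca3a1* of 3.92 ± 5.64 and 9.31 ± 9.34 (log2 ratio -1.23).

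The value of *Piezo2* depends on the pseudocount, as its mean is low: the log2 ratio was 0.74 with 1 added to each mean and 3.19 with 0.01. *Aqp1* (0.68) and *Kcnj8* (0.53) were within the limit by *Lyve1*, but beyond it when reads were summed over each class before the ratio was taken (1.17 and 1.30), and without all cells with at least 2 markers of any other cell type, blood endothelial included (1.52 and 1.502). *Piezo1* (0.13), *Trpv4* (-0.17), *Abcc9* (0.50) and *Pkhd1l1* (-0.63) were within it. Median reads per cell were 297641 above and 376870 not above the threshold. The summed mural list had a mean of 0.147 reads per 10000 (from 0 to 16.8) in *Lyve1* > 1 cells and 0.0778 (from 0 to 7.75) in the others. The summed immune list had means of 1.14 (from 0 to 296.2) and 0.446 (from 0 to 19.3), with medians of 0. Its difference thus depends on the highest cell, whose part in the ratio of *Lyz2* was not tested. The immune marker *Lyz2* had a log2 ratio of 1.89, *Postn* -1.14, *Dcn* -1.02 and *Vwf* -1.36. Without all cells that had such markers, *Pkhd1l1* was also beyond 2-fold (-1.04).

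The *Igfbp5* > 2 class ran against the *Stab2* class. In it 1 member was higher (0.579% of all genes compared) and 3 were lower (0.804%), with a median log2 ratio of -0.22 for the members and -0.03 for all genes. *Aqp1* ran from 0 to 201.2 in the cells above the threshold, with a median of 0.134, and from 0 to 395.9 in the others, with a median of 13.3. The means were 5.55 ± 18.3 and 38.7 ± 54.5 (log2 ratio -2.78). *Scn3a* had means of 0.334 ± 0.861 and 1.90 ± 2.89 (log2 ratio -2.20), with shares of 36.3% (30.01 to 42.9) and 68.5% (64.7 to 72.2). *Kcnj8* had means of 0.417 ± 1.49 and 1.66 ± 4.102 (log2 ratio -1.77, and -0.91 with a pseudocount of 1).

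*Pkhd1l1* was higher in *Igfbp5* > 2 cells, with a median of 3.54 against 0.780 and means of 4.15 ± 3.73 and 1.96 ± 3.10 (log2 ratio 1.04). Its log2 ratio was 0.88 over the cells with at least 100000 reads, 0.91 from summed reads and 0.80 with a pseudocount of 1. *Clca3a1* was just within the limit, at means of 10.5 ± 8.74 and 5.31 ± 7.57 (log2 ratio 0.97), and just beyond it with a threshold lower by 0.5 (1.03). *Abcc9* was found in 1.33% (0.275 to 3.83) of the cells above and 9.09% (6.94 to 11.6) of the cells not above the threshold. *Piezo1* (-0.22), *Piezo2* (-0.20) and *Trpv4* (-0.01) were within the limit. Only 12 of these cells were also in the *Stab2* class, so these splits are not independent of each other. Outside the *Stab2* class the log2 ratios by *Igfbp5* were -2.08 for *Aqp1* and -1.70 for *Scn3a*. Those of *Kcnj8* (-0.81), *Pkhd1l1* (0.55) and *Clca3a1* (0.51) were within the 2-fold limit there. The fibroblast markers *Postn* and *Dcn* had log2 ratios of 1.44 and -1.21 in the *Igfbp5* > 2 class over all cells, the immune marker *Lyz2* -1.96 and the blood endothelial marker *Selp* -1.99. The summed fibroblast list had a mean of 2.97 (0 to 31.7) above and 1.54 (0 to 178.7) not above the threshold. For the immune list the means were 0.273 (0 to 9.65) and 0.969 (0 to 296.2), so they too depend on the highest cell. Without all cells that had at least 2 markers of any other cell type, *Pkhd1l1* was no longer beyond 2-fold (0.99) and *Clca3a1* was (1.17).

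**Figure D2:**
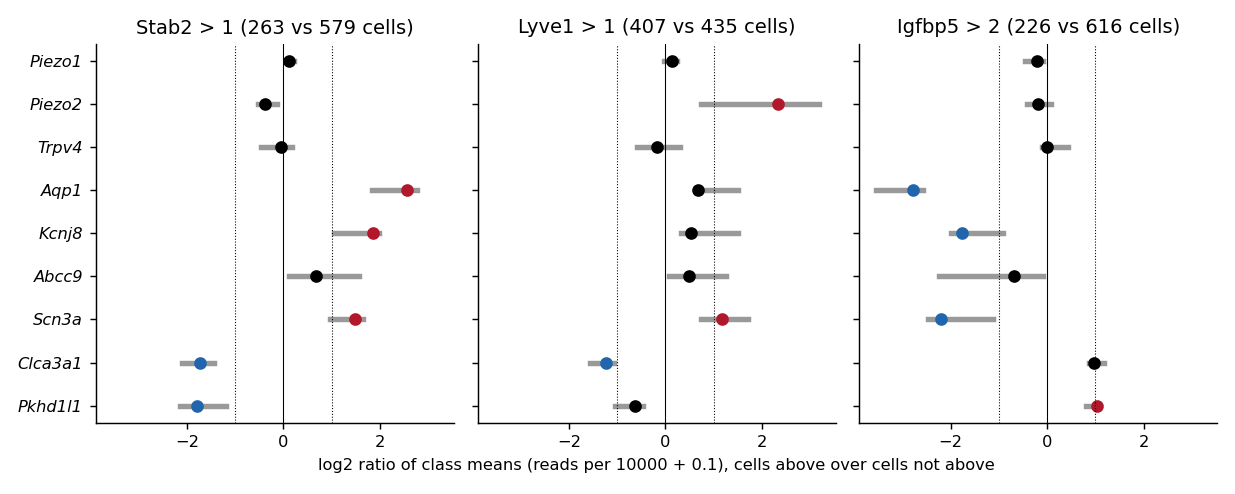
Points give the log2 ratio of mean reads per 10000 (plus 0.1) of each member, cells above the threshold over all others, for *Stab2*, *Lyve1* and *Igfbp5*. Red and blue points are at least 2-fold higher and lower (dotted lines), and grey bars span the values under all settings tried. *Piezo1* stays between -0.46 and 0.25 in all 3 panels, while *Aqp1* reads 2.56 by *Stab2* and -2.78 by *Igfbp5*.

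Cells nearest to a threshold differed little in some members and more in others. In the 36 cells up to 0.25 above the *Stab2* threshold *Aqp1* had a mean of 31.9 ± 31.8 and in the 24 cells up to 0.25 below it 30.99 ± 39.3. At this threshold *Kcnj8* had means of 0.653 just above and 0.703 just below, and *Clca3a1* 4.29 and 3.93. Neither kept its class difference there. *Scn3a* was higher and *Pkhd1l1* lower just above the threshold, as in the whole class, but by less than their SDs over these cells. *Piezo2* had 0.266 ± 0.839 in the 26 cells just above the *Lyve1* threshold and 0.0870 ± 0.242 in the 27 just below. *Kcnj8* had 1.48 ± 3.17 and 0.504 ± 1.33 in the same cells. *Pkhd1l1* had 4.06 in the 30 cells just above the *Igfbp5* threshold and 3.39 in the 22 just below, and *Piezo2* 0.674 ± 1.81 and 0.129 ± 0.232.

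Over steps of each class gene some means moved in 1 direction and others did not. From *Stab2* at 0 over 0 to 1, 1 to 2, 2 to 3 and above 3 (32 cells), the mean of *Aqp1* was 9.46, 15.3, 47.1, 81.3 and 110 reads per 10000. *Clca3a1* went from 9.16 over 7.72, 3.05 and 2.38 to 1.13. *Kcnj8* did not follow to the end, with 0.607, 0.816, 2.03, 3.73 and 1.83. *Piezo2* was between 0.350 and 0.484 in the first 4 steps and at 0.01 in the last one. Along *Lyve1*, *Piezo2* read 0.0675, 0.0836, 0.317, 0.4998 and 1.21, and the last step was the highest. Along *Igfbp5*, *Scn3a* went from 2.26 at 0 to 0.199 above 3, and *Pkhd1l1* from 1.06 to 4.70. Along *Lyve1*, *Aqp1* (33.9, 19.4, 29.6, 35.7 and 40.7) and *Kcnj8* (1.83, 0.818, 0.998, 1.51 and 1.91) were lowest in the step above 0 to 1. Depth differed between these steps, with median reads per cell of 126800, 516900, 119800, 251100 and 531800. Along *Igfbp5* the median was 126700 at 0 and 520700 above 0 to 1. A class gene can be missed in a shallow cell, so the steps at 0 may mix cells. The part of depth in these means was not tested. Along *Stab2*, *Trpv4* read 0.665, 0.503, 0.377, 0.526 and 1.51.

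**Figure D3:**
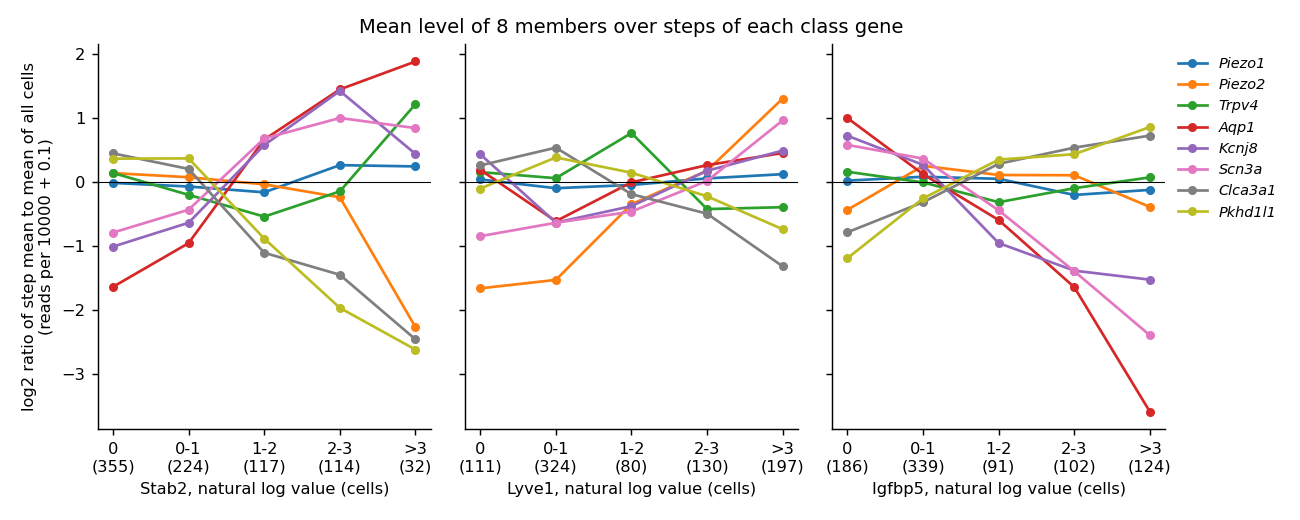
The mean level of 8 members in each step of the natural log value of *Stab2*, *Lyve1* and *Igfbp5* is drawn as the log2 ratio to the mean of all cells (0.1 added to both), with the number of cells per step in brackets. *Abcc9* is left out because of its few reads, and median reads per cell differ between steps. *Aqp1* climbs to 110 reads per 10000 at *Stab2* above 3 and *Piezo2* to 1.21 at *Lyve1* above 3, and *Piezo1* keeps close to 0.

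The 3 splits combine into 8 groups, 2 of which held 9 and 3 cells and are not described. *Piezo2* followed *Lyve1* whether or not *Stab2* was high. It was found in 42.1% of the cells with *Stab2* and *Lyve1* but not *Igfbp5* (16.6% of all cells), and in 12.6% of those with *Stab2* alone (13.2% of all). Without *Stab2* it was found in 59.9% of the cells with *Lyve1* alone (21.6% of all), 53.9% of the 76 cells with *Lyve1* and *Igfbp5*, 18.8% of those with *Igfbp5* alone (16.4% of all) and 19.7% of those with none of the 3 (21.7% of all). Its log2 ratio by *Lyve1* was 1.91 within the *Stab2* class and 2.54 outside it.

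*Aqp1* and *Kcnj8* depended on both. Outside the *Stab2* class the log2 ratio by *Lyve1* was 2.79 for *Aqp1* and 1.51 for *Kcnj8*, and within the *Stab2* class -0.35 and -0.38. The mean of *Aqp1* was 79.5 with *Stab2* alone, 64.5 with *Stab2* and *Lyve1*, 28.4 with *Lyve1* alone, 4.31 with none and 1.60 with *Igfbp5* alone. *Scn3a* was higher by *Stab2* both within (1.19) and outside (1.76) the *Lyve1* class, and *Pkhd1l1* lower by *Stab2* in both (-1.51 and -1.96). *Abcc9* was found in 0 of the 76 cells with *Lyve1* and *Igfbp5* but not *Stab2*, which allows a share of up to 3.95% by the limit of 3 counts, and of up to 4.74% by the exact interval. *Piezo1* was found in 59.2% to 77.5% of the cells in these 6 groups.

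**Figure D4:**
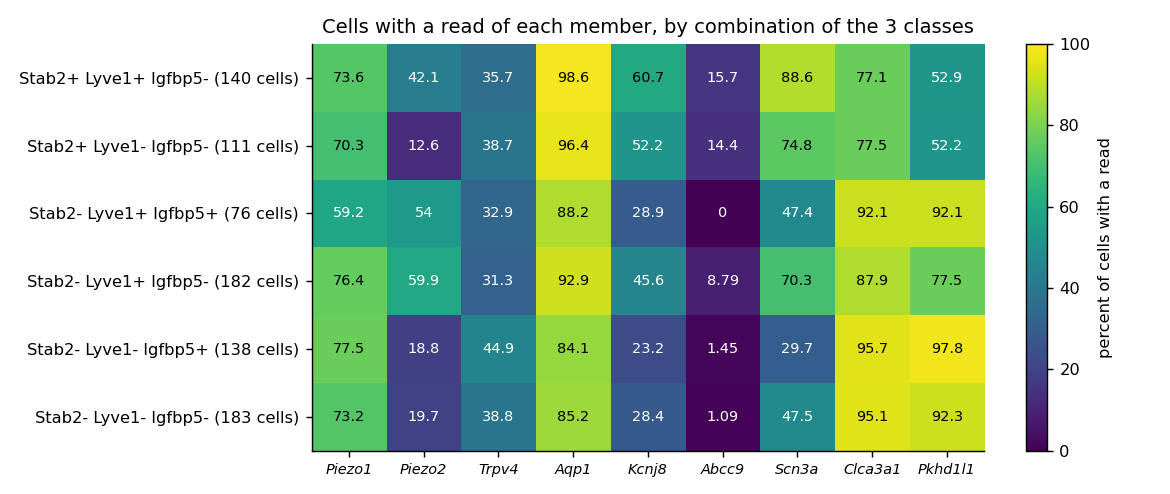
Each row is 1 combination of the 3 classes with at least 50 cells (+ above, - not above the threshold), and each column 1 member. The number and colour give the percent of cells with a read at the cells' own depth. *Piezo2* is found in 42.1% to 59.9% of the cells of the 3 *Lyve1*+ rows and in 12.6% to 19.7% of the others, and *Kcnj8* is highest in the 2 *Stab2*+ rows (60.7% and 52.2%).

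Cells were also split by markers of other LEC types. In the 17.9% of cells with *Cldn11*, a valve marker, above 1, *Clca3a1* had a mean of 9.18 ± 8.47 against 6.17 ± 8.08 in the others, *Aqp1* 11.5 ± 25.7 against 33.8 ± 52.8 (log2 ratio -1.54), *Kcnj8* 0.482 ± 1.19 against 1.51 ± 3.95 (-1.47), and *Piezo1* 1.10 ± 1.59 against 0.959 ± 1.43. In the 16.9% of cells with *Fndc1* above 1, a marker the study uses for capillary LECs without *Ptx3*, *Piezo2* had a mean of 1.02 ± 1.78 against 0.313 ± 0.947 (log2 ratio 1.44) and *Aqp1* 10.5 ± 20.04 against 33.7 ± 52.97 (-1.67). The other members were within 2-fold in both splits. *Piezo2* was found in 51.4% (42.9 to 59.9) of the *Fndc1* cells and 30.9% (27.5 to 34.4) of the others.

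Kir6.1 and SUR2 form 1 channel together, and their transcripts were found together in few cells. *Abcc9* was found in 46 of the cells with *Kcnj8* (13.8%, 10.3 to 17.9) and in 13 of the cells without it (2.56%, 1.37 to 4.34). At 20000 reads per cell the shares were 10.6% (6.92 to 15.4) and 0.885% (0.288 to 2.05). Seen from *Abcc9*, 77.97% (65.3 to 87.7) of its 59 cells had *Kcnj8*. The other pore of this channel, *Kcnj11*, was found in 2.38% of all cells and the other regulatory subunit, *Abcc8*, in 0.594%. Both *Kcnj8* and *Abcc9* are also known from pericytes. Of 10 mural markers 9 had a row, none was found in 5% of the cells, *Des* had no read, and the summed list had a mean of 0.101 reads per 10000 (0 to 6.39) in cells with *Kcnj8* and 0.118 (0 to 16.8) in cells without. No cell had 2 mural markers above 1.

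The Piezo channels were found together somewhat more often at the cells' own depth, with a smaller difference at equal depth that was not tested. *Piezo2* was found in 37.6% (33.8 to 41.6) of cells with *Piezo1* and 25.4% (19.9 to 31.6) of cells without. At 20000 reads the shares were 25.2% (20.97 to 29.8) and 19.8% (16.04 to 24.1), and the intervals overlap. *Trpv4* was found in 24.2% of cells with and 26.1% of cells without *Piezo1* at that depth. *Pkhd1l1* was found in 79.5% (76.02 to 82.8) of cells with *Clca3a1* and 34.1% (27.8 to 40.9) of cells without, at 20000 reads.

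Across all cells, which share tissue, sort and matrix and are not replicates, Pearson's r of natural log values joined some members into groups, while others stood alone. *Aqp1*, *Scn3a* and *Kcnj8* correlated with each other (0.27 to 0.46) and with *Stab2* (0.67, 0.38 and 0.33). *Clca3a1* and *Pkhd1l1* correlated with each other (0.53) and with *Igfbp5* (0.37 and 0.42), and negatively with *Aqp1* (-0.65 and -0.50). *Aqp1* was above 1 without *Clca3a1* above 1 in 30.8% of the cells, *Clca3a1* without *Aqp1* in 44.1%, both in 19% and neither in 6.18%. *Piezo1* and *Trpv4* had an r between -0.05 and 0.07 with every other member, and *Piezo2* had 0.47 with *Lyve1* and at most 0.20 with another member. *Abcc9* had 0.24 with *Kcnj8* and 0.21 with *Aqp1*.

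**Figure D5:**
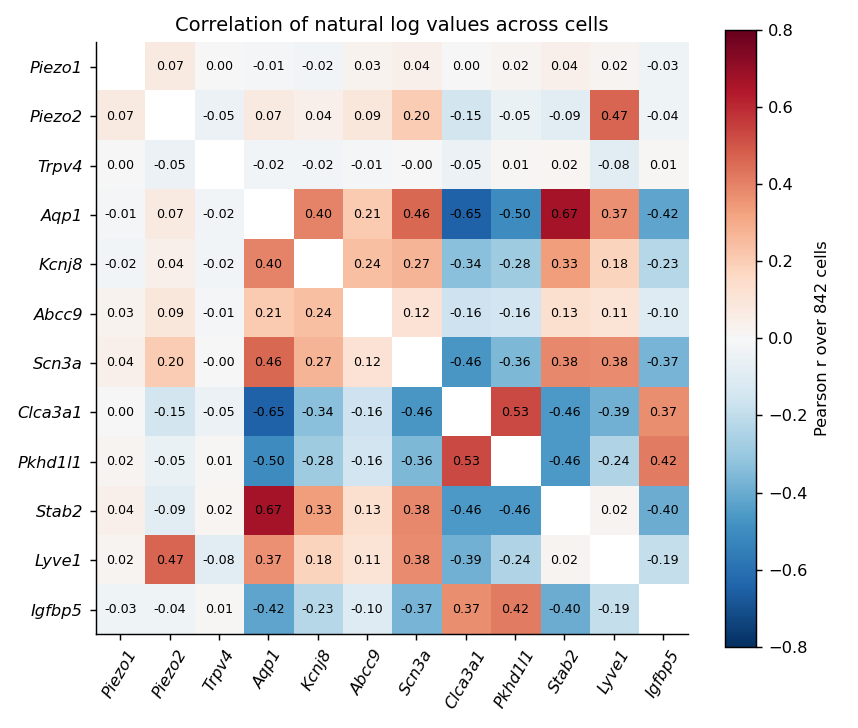
Pearson's r of natural log values over all cells for each pair of the 9 members and the 3 genes that define the classes, from blue (negative) to red (positive). *Aqp1* pairs with *Stab2* (0.67), *Clca3a1* with *Pkhd1l1* (0.53) and *Piezo2* with *Lyve1* (0.47), and the rows of *Piezo1* and *Trpv4* are pale.

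Among genes with a read in 10% of the cells or more, those most like each member by the same r were as follows. For *Aqp1* they were *Gm525* (0.73), *Stab2* (0.67) and *Sema7a* (0.58), a membrane-anchored semaphorin. *Scn3a* had *Gm525* (0.51), *Angpt2* (0.47), a ligand of the TIE2 receptor, and *Aqp1* (0.46). *Kcnj8* had *Gm525* (0.42), *Aqp1* (0.395) and *Mrc1* (0.38), the mannose receptor. For *Piezo2* they were *Lyve1* (0.47), *Syne1* (0.33), a protein that ties the nucleus to the cytoskeleton, and *Reln* (0.32), a secreted glycoprotein. *Pkhd1l1* had *Clca3a1* (0.53), *Nudt4* (0.43) and *Fstl1* (0.43), and *Clca3a1* had *Pkhd1l1* (0.53), *Fstl1* (0.50) and *Tspan7* (0.50). The remaining members had no close gene: the highest r was 0.16 for *Piezo1* (*AC164624.1*, then *Sun2* and *Dock4*), 0.21 for *Trpv4* (*Capn5*, then *Tbxa2r* and *Gm6542*) and 0.24 for *Abcc9* (*Gm12669*, then *Kcnj8* and *Rpl31-ps13*). Of the *Abcc9* genes only *Kcnj8* kept a like value at 20000 reads (0.20), where *Gm12669* had 0.03.

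Other channels put the members in context. Of the other listed genes of the same channel families, 46 reached 5% of the cells. By *Stab2*, 2 of these were higher (4.35%, against 1.11% of all genes compared) and 1 lower (2.17%, against 1.43%). By *Lyve1* 0 of these were higher (0.493% of all genes) and 0 lower (0.484%). By *Igfbp5* 1 of these was higher (2.17%, against 0.579%) and 2 lower (4.35%, against 0.804%). Nothing is read from counts this small. Among them, *Clca2* (found in 39.3%), in the same gene row as *Clca3a1* on chromosome 3, had log2 ratios of 1.28 by *Stab2* and -1.03 by *Igfbp5*, opposite to *Clca3a1*. *Kcnk5* (33.6%), a tandem-pore potassium channel, had -1.94 and 1.62. The sodium channel list held 13 genes with a row, of which 4, *Scn3a* included, reached 5% of the cells.

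In the Piezo and Trp mechanosensing list 13 of 25 genes with a row reached 5% of the cells. Of the 13, only *Piezo2* by *Lyve1* was beyond 2-fold in any class. Of all genes compared, 2.53% were by *Stab2*, 0.976% by *Lyve1* and 1.38% by *Igfbp5*. Low counts in lists this short are therefore near the share of all genes. *Piezo1* was the most widely found of this list, before *Trpm7* (68.5%), *Tmem63a* (64.7%) and *Pkd1* (63.2%). In the inward rectifier list, *Kcnj8* and *Abcc9* were the 2 genes of 11 with a row to reach 5%. *Aqp1* was the only one of 4 aquaporins with a row to do so, before *Aqp11* with 2.38%. Among store-operated and intracellular calcium channels 10 of 24 did, led by *Itpr1* (83.5%), and 0 were beyond 2-fold. Among chloride channels and their regulators 21 of 29 did, led by *Lrrc8a* (94.2%), a subunit of the volume-regulated anion channel. The calcium-activated and tandem-pore potassium list had 3 of 13, led by *Kcnn3* (47.1%), the voltage-gated potassium list 0 of 10, and the fibrocystin and ciliary list 5 of 6, with *Arl13b* (40.3%) next to *Pkhd1l1*.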

How the data were processed

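Reads were aligned to mm10 with STAR and counted per gene with featureCounts of Subread by the authors, who removed cells with few genes or many mitochondrial reads. Of 1536 wells 842 cells were kept: 263 with *Stab2* > 1, 407 with *Lyve1* > 1 and 226 with *Igfbp5* > 2, and correlations have n = 842. The deposited values are on a natural log scale, of reads per 10000 with 1 added by the authors. Their methods name log2, which did not return 10000 reads per 10000 in each cell, while the natural base did. Whole reads were recovered for 100% of values above 0 (within 0.01 reads). Strand and annotation are not given in the sources used here, and no doublet caller was run.

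The 9 members, the classes and the gene lists were chosen with earlier results of these data known. Genes with a read in 5% of cells or more were compared by the log2 ratio of class means with a pseudocount of 0.1, and a ratio of at least 1 in size was counted. Cells are not replicates, so no p-value is given. Thinning drew 20000 reads per cell, and 51 shallower cells were left out. Named genes are the members, the class genes, the 3 most similar genes of each member, listed channel genes beyond 2-fold or most widely found, and defining markers. In the Piezo and Trp list and the inward rectifier and aquaporin lists, further genes (*Trpm7*, *Tmem63a*, *Pkd1*, *Kcnj11*, *Abcc8*, *Aqp11*) were named after their values were seen, as was *Arl13b*. Some genes that this rule names are not reported here.

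Coordinates come from GENCODE M21 on GRCm38, in which 96.1% of symbols matched, and promoters from RefSeq. Alternatives changed the pseudocount, depth, averaging, thresholds and cells. The steps were run on simulated data with the *Stab2* split only. Changes near the 2-fold limit, and changes in genes as low as *Abcc9*, were not simulated. Python 3.11.15, NumPy 2.4.6, pandas 2.3.3, SciPy 1.17.1 and matplotlib 3.10.9 were used.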

Additional observations from a re-analysis of the deposited data

How the results depend on the processing

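Under 10 settings beside the one reported, 0 ratios of single members reversed a counted difference and 19 crossed the 2-fold limit. Members beyond 2-fold by *Lyve1* were 3 as reported, 1 (*Clca3a1*) with a pseudocount of 1, 5 with summed reads and 6 without all cells with markers of other cell types. By *Igfbp5* they were 4 as reported and 2 (*Scn3a*, *Aqp1*) with a pseudocount of 1, and without those cells again 4, with *Clca3a1* (1.17) in place of *Pkhd1l1* (0.99). The causes were not tested. The share of all genes beyond 2-fold was 2.53% by *Stab2*, 0.976% by *Lyve1* and 1.38% by *Igfbp5*, and 1.42%, 0.564% and 0.792% among the 21454 genes found in at least 3 cells. Leaving out 12 cells with markers of other cell types except blood endothelial was chosen after seeing the data, because most cells carried blood endothelial markers. No paired analysis was possible because all cells form 1 sample. *Abcc9* rests on 2661 reads in all.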

Other observations

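Genes that work with mechanosensors in endothelium, from a list beside the channel lists, were widely found. Of 19 listed, 18 had a row and all 18 reached 5% of the cells, 12 of them in more cells than not. Of all 23168 genes 11572 reached 5%, without the class gene. *Klf4*, a transcription factor that flow can induce, was found in 97.9% of the cells at a mean of 18.99 reads per 10000, and *Klf2* in 87.5% at 4.37. Their log2 ratios lay between -0.06 and 0.06 in the 3 classes. The tissue was digested with enzymes before the sort, and whether flow or this step set the 2 levels was not tested. *Cav1*, the main protein of caveolae, had the only 2-fold difference of this list, with a log2 ratio of -1.31 by *Stab2*. Of all genes compared, 1.43% were lower by *Stab2*. *Mdfic*, whose protein binds Piezo channels, was found in 54.99% of the cells, with log2 ratios of -0.52, -0.35 and 0.20 by *Stab2*, *Lyve1* and *Igfbp5*. *Gata2*, a transcription factor of lymphatic valves, was found in 41.8%, with -0.71, -0.92 and 0.53.

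The class genes themselves differed between the classes: *Lyve1* had a log2 ratio of -1.07 by *Igfbp5* > 2, and *Igfbp5* of -3.23 by *Stab2* > 1.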
